A study of Flaveria bidentis and Flaveria robusta with 100 samples.

Results

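The chloroplast NAD(P)H dehydrogenase-like (NDH) complex sits in the thylakoid membrane, takes electrons from ferredoxin and passes them to plastoquinone. It is 1 of the routes of cyclic electron flow around photosystem I, which adds to the proton gradient for ATP synthesis without net NADPH. In C4 plants of the NADP-malic enzyme type, such as maize and sorghum, the complex is known to be more abundant in bundle sheath than in mesophyll chloroplasts. Its core is encoded partly in the plastid genome and partly in the nucleus, and the genes described here are nuclear.

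The 10 genes were taken by Arabidopsis identifier from the deposited table of 21869 genes, and all 10 were present. They fall into 3 structural groups. NDHL (AT1G70760), NDHM (AT4G37925), NDHN (AT5G58260) and NDHO (AT1G74880) belong to the membrane and stromal arm around subcomplex A. NDHS (AT4G23890) and NDHT (AT4G09350) lie at the stromal side where ferredoxin docks, NDHS carrying the ferredoxin-binding site and NDHT a J-like domain. PNSB1 (AT1G15980), PNSB2 (AT1G64770), PNSB3 (AT3G16250) and PNSB4 (AT1G18730) form most of subcomplex B. These roles are known from Arabidopsis and were carried over by gene name, since the authors assigned the Flaveria reads to Arabidopsis genes.

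Leaf RNA of the C4 plant Flaveria bidentis and the C3 plant Flaveria robusta was sequenced to follow the circadian clock in both species. Plants of both species spent 36 days in a greenhouse and 6 days in a growth chamber, where 10 h of light (22 °C) alternated with 14 h of dark (20 °C). Mature leaves were then taken every 4 h through 2 days of the same light and dark cycle (LD) and 2 days of constant light (LL), with a last sampling at the start of LL day 3. The labels name no transgene or mutation, and each of the 25 time points of a species has 2 biological replicates, 100 libraries in all. Hours are given as zeitgeber time (ZT), counted from lights on in LD and from the hour at which lights would have come on in LL.

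Every value below is the authors' mean RPM, reads scaled to a common library total, over the libraries of 1 time point, 12 LD means and 13 LL means per species. These means sum to between 999417.5 and 1000090, and columns of single libraries matched no sample title and were not used, so depth and spread per library are not given. Every p measures the scatter of time-point means around a model rather than the spread between plants. Differences are on the scale of log2(mean RPM + 1) and were called at an adjusted p under 0.05 in limma, with Benjamini-Hochberg adjustment over 13563 genes. RPM are not divided by gene length, so levels are compared between species for 1 gene and never between genes. A difference between the species in how well reads matched the Arabidopsis gene was not tested.

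The leaf markers RCA and RBCS1A were abundant in both species, and the summed leaf list (3 of 5 markers in the table) in LD ran from 14476 to 34290 RPM in the C4 species and from 30380.5 to 89256 RPM in the C3 species. Against the direction of the NDH genes, RCA, Rubisco activase, and RBCS1A, a Rubisco small subunit, were lower in F. bidentis in LD by log2 differences of -1.92 (SE 0.14, limma adjusted p = 1.03e-08) and -1.83 (SE 0.12, limma adjusted p = 2.13e-09). LHCB5, a light-harvesting protein and the other marker of the list, was not called in LD (0.048, limma adjusted p = 0.837) and was higher in F. bidentis in LL (0.62, limma adjusted p = 0.00545). In LD the guard cell and epidermis sums (3 of 4 markers) were 22.5 to 65.5 and 17 to 37.5 RPM in F. bidentis and F. robusta, the vascular sums (4 of 4) 287 to 924 and 528 to 1522.5 RPM, and the senescence sums (2 of 3) 26 to 93 and 5 to 37.5 RPM. The root sum (3 of 3) stayed at or below 9.5 RPM, with RHD6 and EXPA7 at 0. The part of tissue composition and senescence in the species differences was not tested, and in bulk leaves fewer cells of a type and less RNA per cell cannot be told apart.

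Transcripts of all 10 NDH subunits were more abundant in the C4 species, in LD and in LL. The median log2 difference of F. bidentis against F. robusta over the 10 genes was 1.17 in LD and 1.43 in LL, beside -0.003 and -0.13 over all genes tested. In LD 10 of 10 members were called higher in F. bidentis, where 32.3% of all genes were called higher and 64.8% were called in either direction. The members were also higher at every one of the 12 matched LD time points in 10 of 10 cases, against 15% of all genes.

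**Figure D1:**
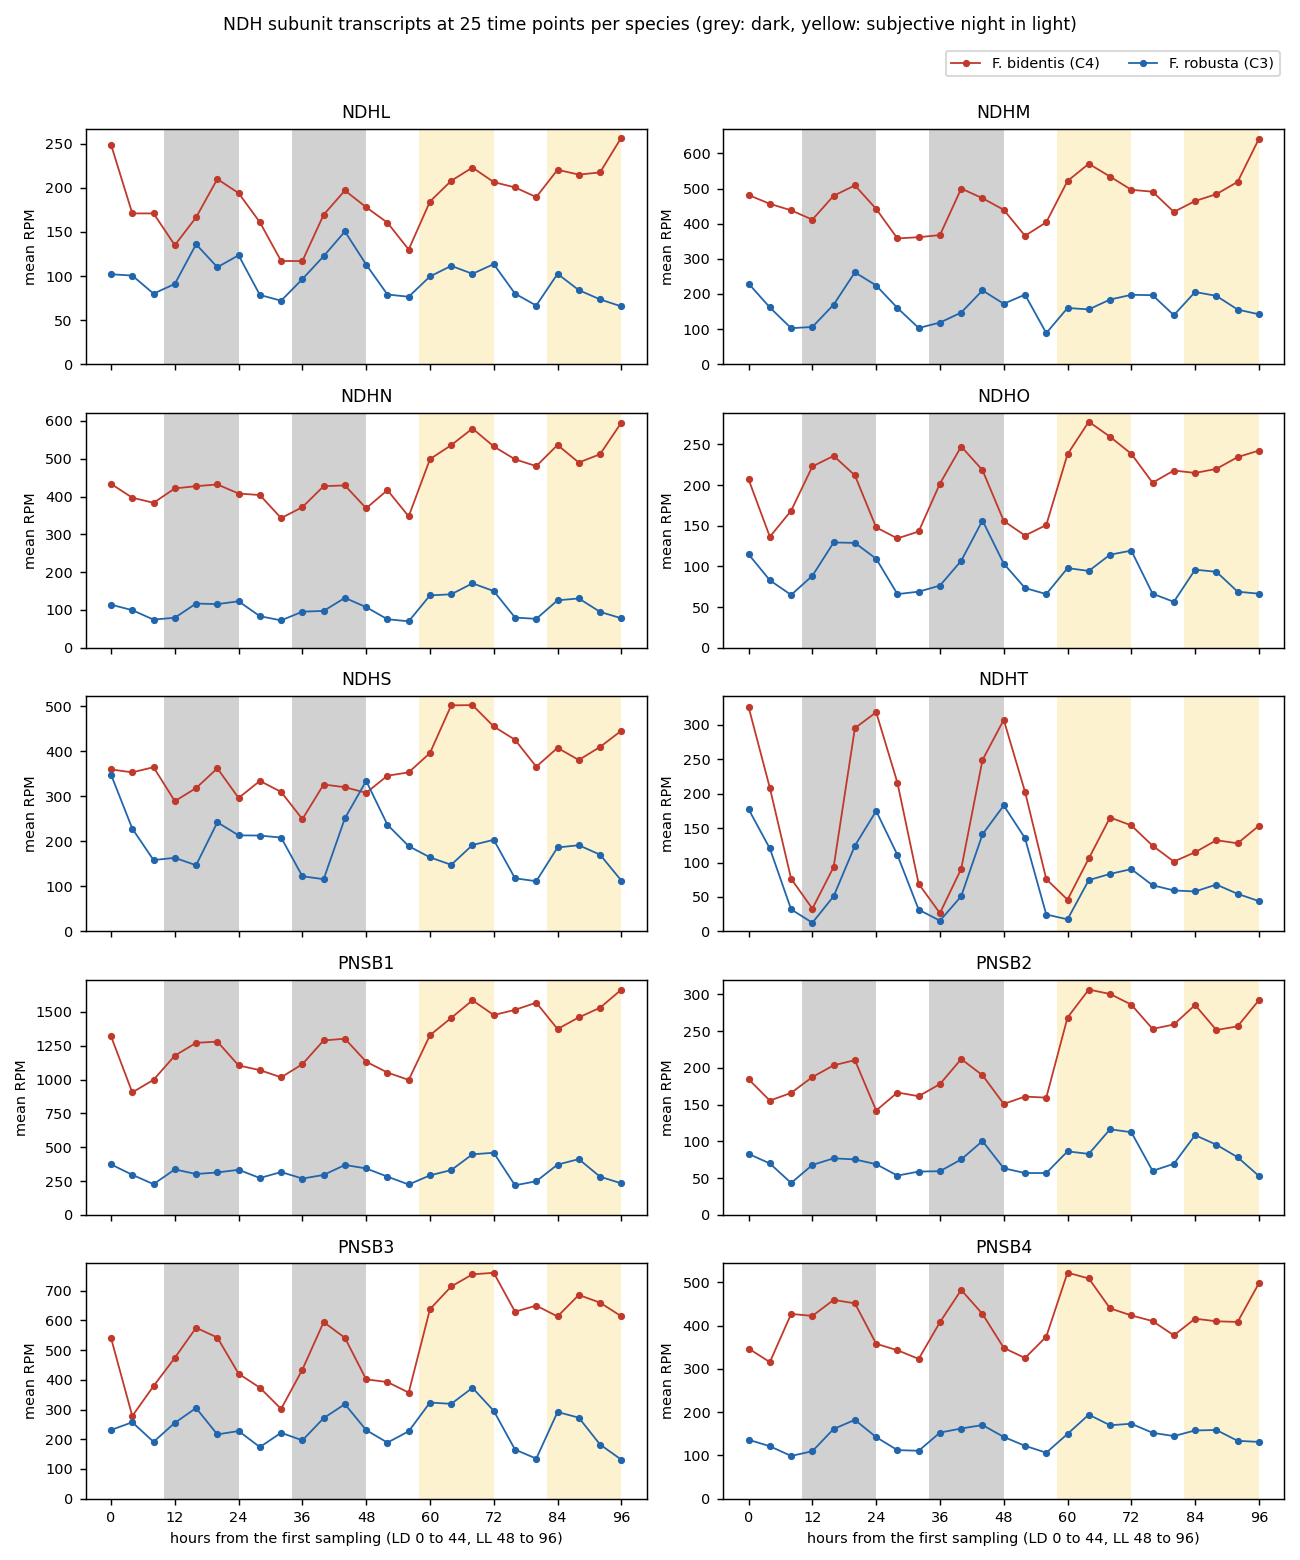
Mean RPM (vertical axis) of the 10 NDH subunit genes against hours from the first sampling, in F. bidentis (red) and F. robusta (blue), 1 point per time-point mean, with dark hours in grey and subjective nights in constant light in yellow. The F. bidentis line lies above the F. robusta line throughout, except for NDHS at hour 48, and NDHT alone swings by more than 3 log2 units within each LD day.

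Of the subcomplex A arm, NDHN showed the widest gap. Its LD means had a lowest value of 343, a median of 414.8 and a highest value of 433.5 RPM in F. bidentis, and of 72.5, 98.5 and 132 RPM in F. robusta. The 2 species did not overlap: the lowest F. bidentis mean was above the highest F. robusta mean. NDHN was 4.09-fold higher in F. bidentis (log2 difference 2.03, SE 0.078, limma adjusted p = 4.9e-12), and the ratio at single time points ran from 3.24 to 5.25.

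NDHM, another stromal subunit of subcomplex A, ran from 358 over a median of 449.2 to 509 RPM in F. bidentis and from 102.5 over 160.8 to 261.5 RPM in F. robusta. Its ranges were also apart, and the fitted ratio was 2.75 (log2 1.46, SE 0.11, limma adjusted p = 1.05e-08). NDHO, their partner in the same arm, ranged over 134.5 to 247.5 RPM (median 204.5) against 65 to 156.5 RPM (median 97.8), and NDHL, a small membrane subunit, over 117 to 249 RPM (median 170.2) against 72 to 150.5 RPM (median 101.2). For these genes the species overlapped across hours but not within an hour, with F. bidentis 1.93-fold (NDHO, adjusted p = 3.34e-07) and 1.62-fold (NDHL, adjusted p = 8.08e-06) higher in limma.

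Of the ferredoxin-side subunits, NDHS means spanned 249.5 to 365 RPM (median 323.5) in F. bidentis and 116 to 348.5 RPM (median 210.8) in F. robusta. The ratio between the species was 1.03 at their closest LD time point and 2.80-fold at their widest. Over the LD time points NDHS was 1.67-fold higher in F. bidentis (log2 0.74, SE 0.11, limma adjusted p = 2.22e-05).

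NDHT behaved differently: its level moved widely through the day in both species, between 26.5 and 326 RPM (median 151) in F. bidentis and between 12.5 and 177.5 RPM (median 81) in F. robusta. The ranges overlapped widely, yet at matched hours the ratio lay between 1.67 and 2.52. The fitted ratio was 1.96 (log2 0.97, SE 0.071, limma adjusted p = 9.17e-09), with the same log2 difference of 0.97 over ZT00 to ZT08 and over ZT12 to ZT20.

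Among the subcomplex B genes, PNSB1 gave the largest difference. Its LD means were 905.5 to 1320 RPM (median 1146) in F. bidentis and 227.5 to 373.5 RPM (median 308.2) in F. robusta. No F. robusta mean reached the F. bidentis range, and PNSB1 was 3.73-fold higher in F. bidentis (log2 1.90, SE 0.070, limma adjusted p = 3.11e-12).

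PNSB4, which with PNSB5 lies on the membrane side of subcomplex B, ranged over 315.5 to 482.5 RPM (median 415.2) against 98.5 to 182 RPM (median 139), and PNSB2 over 142 to 212 RPM (median 181.2) against 43.5 to 100.5 RPM (median 69.5). Both pairs of ranges were apart, with fitted ratios of 2.89 (adjusted p = 2.25e-10) and 2.60 (adjusted p = 1.24e-09) in limma. PNSB3, an iron-sulfur protein by homology, ranged over 278 to 594.5 RPM (median 454.2) against 173.5 to 318 RPM (median 229.2). Its species ranges overlapped at their ends, the ratio fell to 1.08 at its lowest time point, and over LD it was 1.88 (log2 0.91, SE 0.099, limma adjusted p = 7.4e-07).

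In order of the LD difference, NDHN and PNSB1 led at 2.03 and 1.90, PNSB4, NDHM and PNSB2 followed at 1.53, 1.46 and 1.38, and NDHT, NDHO, PNSB3, NDHS and NDHL closed between 0.97 and 0.70. Neighbours within each of these 3 sets differed by less than about 2 standard errors of either gene. Ranges over all LD means were apart in 5 of 10 members (NDHM, NDHN, PNSB1, PNSB2 and PNSB4), against 3.97% of all genes with F. bidentis wholly above F. robusta.

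In LL the gap was of the same kind. All 10 members were called higher in F. bidentis, where 26% of all genes were called higher and 67.8% in either direction. NDHN, between 347.5 and 595.5 RPM (median 499) in F. bidentis and between 70 and 170.5 RPM (median 107.5) in F. robusta, was 4.55-fold higher (log2 2.19, SE 0.11, limma adjusted p = 2.63e-12). PNSB1, between 997.5 and 1664.5 RPM (median 1460.0) against 219 and 459.5 RPM (median 292.5), was 4.44-fold higher (log2 2.15, SE 0.11, limma adjusted p = 4.93e-12). Both genes again had no shared values between the species.

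The remaining LL differences on the log2 scale were 1.63 for PNSB2, 1.55 for NDHM, 1.5 for PNSB4, 1.36 for PNSB3, 1.32 for NDHO, 1.21 for NDHS, 1.15 for NDHL and 1.01 for NDHT, each called. NDHS was the only member with an LL time point that went the other way: at ZT00 of LL day 1 it stood at 308 RPM in F. bidentis and 334.5 RPM in F. robusta. The other 9 members were higher in F. bidentis at all 13 time points, against 11.3% of all genes, and 7 had ranges apart, against 5.14% of all genes.

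Scaling by total reads touches these LL values. A trimmed mean of M values (TMM) scales each mean by the bulk of its genes. With TMM factors the share of called genes that were higher in F. bidentis rose from 38.32% to 49.37%. The median over all genes moved from -0.134 to -0.003. After TMM 10 of 10 members were still called higher, against 35.1% of all genes. Without the 4 F. robusta LL means whose TMM factor was above 1.2, chosen after seeing the data, the 10 differences lay between 0.94 (NDHT) and 1.98 (NDHN).

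**Figure D2:**
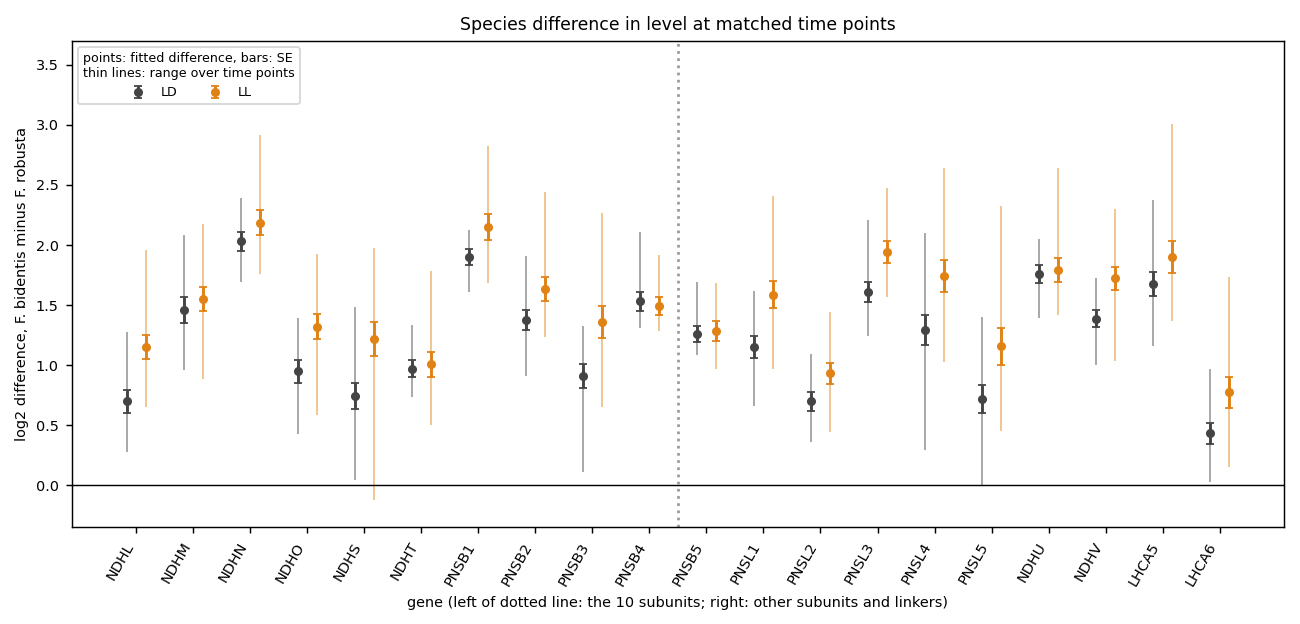
Log2 difference of F. bidentis minus F. robusta at matched time points (vertical axis) for the 10 subunits and, right of the dotted line, 10 other subunits and linkers, in LD (dark grey) and LL (orange). Points are fitted differences, bars their SE and thin lines the range over single time points. All fitted differences lie above 0, from 0.43 for LHCA6 to 2.03 for NDHN in LD.

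The rest of the NDH gene set was compared in the same way, using lists by role. The 10 other nuclear subunits and linkers comprise PNSB5 of subcomplex B, the lumenal PNSL1 to PNSL5, NDHU and NDHV beside NDHS and NDHT, and the linkers LHCA5 and LHCA6, which tie NDH to photosystem I. All 10 were called higher in F. bidentis in LD, with a median log2 difference of 1.27, and all 10 in LL, with a median of 1.65, where 32.3% and 26% of all genes were called higher. NDHU, with 184 to 240.5 RPM (median 213.2) in F. bidentis and 45.5 to 85 RPM (median 61.2) in F. robusta, differed by 1.76 (SE 0.071, limma adjusted p = 1.01e-11) in LD, with ranges apart. LHCA6 had the smallest LD difference, 0.43 (SE 0.088, limma adjusted p = 4.2e-04), and its ranges of 798 to 1379.5 and 499.5 to 1001 RPM overlapped.

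NDH assembly factors were also mostly higher in the C4 species. Of 7 listed, 6 were tested and 5 were called higher in LD, against 32.3% of all genes, led by CRR7 at 2.17 (SE 0.13) and CRR1 at 2.15 (SE 0.12), with limma adjusted p of 6.98e-10 and 5.03e-10. CRR7 had 26.5 to 54.5 RPM in F. bidentis and 5 to 12.5 RPM in F. robusta, and CRR1 had 121 to 213.5 and 26 to 46.5 RPM, so neither overlapped. PAM68L (1.70), CRR6 (1.39) and CRR41 (1.02) were called too. CRR42, at 0.17 (SE 0.13, limma adjusted p = 0.285), was not called, and CRR3 was listed at 0 in every F. bidentis mean and at most 2 RPM in F. robusta.

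The pentatricopeptide repeat (PPR) proteins, which process or edit plastid ndh transcripts in Arabidopsis, gave smaller values. In LD 3 of 5 were called higher in F. bidentis, against 32.3% of all genes: CRR28 at 0.94, CRR2 at 0.33 and CRR21 at 0.26, while CRR4 at 0.19 and CRR22 at 0.06 did not pass, and the list median was 0.26. CRR21 stayed between 2.5 and 5.5 RPM in both species in LD, a few steps of the 0.5 RPM to which the table is rounded. PGR5 and PGRL1B, of the other route of cyclic electron flow, were higher in F. bidentis by 0.84 (SE 0.14) and 0.72 (SE 0.086) in LD, both called.

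Rhythms over 24 h in LD were called for 8 of 10 members in each species. Since 67.3% and 65.4% of all genes were called, these counts stand near the share over all genes, F. bidentis first. The fitted peak-to-trough difference (span, log2) had a median of 0.48 over the members in F. bidentis and 0.75 in F. robusta, beside 0.80 and 0.79 over all genes. After TMM the member medians were 0.52 in F. bidentis and 0.77 in F. robusta, beside 0.57 and 0.55 over all genes. How the members' spans compare with those of all genes thus depended on scaling. On the deposited scale, apart from NDHT, spans stayed below 1 in F. bidentis, and in F. robusta NDHM and NDHO alone went past 1. After TMM NDHL reached 1.04 in F. bidentis. In F. robusta NDHM (1.45) and NDHS (1.47) were then past 1, with NDHO at 0.97. The fitted peaks of called members on the deposited scale lay in the dark hours, but for NDHS in F. robusta.

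NDHT was the exception in both species. In F. bidentis its first LD day read 326, 208.5, 76.5, 33, 93.5 and 295.5 RPM from ZT00 to ZT20, and the second 318.5, 216, 69, 26.5, 91 and 249 RPM. In F. robusta the same hours read 177.5, 120.5, 32, 12.5, 51 and 124.5 RPM, then 175, 111, 31.5, 15.5, 51 and 141 RPM. Both species were highest at dawn and lowest at ZT12, 2 h after lights off, and the second day retraced the first.

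The NDHT span was 3.31 (SE 0.24, limma adjusted p = 5.47e-06) in F. bidentis and 3.51 (SE 0.23, limma adjusted p = 8.88e-07) in F. robusta. Fitted peaks fell at 23.5 h in both, 0.003 h apart (SE 0.42). No species difference in the NDHT rhythm was called (span difference -0.19, SE 0.35, limma adjusted p = 0.928). PGR5, which acts in the other cyclic route, swung even more widely, by 4.45 and 5.19, with peaks at 1.26 and 1.91 h.

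The other called spans in F. bidentis were 0.94 for PNSB3, 0.90 for NDHO, 0.77 for NDHL, 0.52 for PNSB4, 0.44 for PNSB1 and PNSB2 and 0.43 for NDHM, with fitted peaks between 16.0 and 21.7 h. NDHN (0.25, adjusted p = 0.145) and NDHS (0.19, adjusted p = 0.461) were not called by limma. In F. robusta the called spans were 1.27 for NDHM, 1.12 for NDHO, 0.99 for NDHS, 0.78 for NDHL, 0.73 for NDHN, 0.70 for PNSB2 and 0.68 for PNSB4. All of these peaked between 19.1 and 21.8 h except NDHS, which peaked at 0.40 h, while PNSB1 (0.34, adjusted p = 0.202) and PNSB3 (0.49, adjusted p = 0.123) were not called by limma.

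These smaller rhythms depended on scaling. TMM factors were at least 1.06 at the dark LD hours and at most 0.987 at the lit ones. After TMM the F. bidentis count was 6, of which 4 were shared: NDHO (0.0649), PNSB1 (0.0507), PNSB2 (0.232) and PNSB4 (0.616) lost their calls and NDHN (0.0155) and NDHS (0.00801) gained one, by limma adjusted p. The TMM background fell to 40.9% in F. bidentis and 41.8% in F. robusta, where the same 8 members were called. Peaks moved towards dawn after TMM, for example from 19.1 to 23.8 h for NDHM and from 18.3 to 23.6 h for PNSB1 in F. bidentis, while NDHT moved from 23.5 to 24.0 h. The count in F. bidentis fell to 5 without ZT08 of LD day 2, where NDHM, PNSB1 and PNSB2 were lost. These 3 calls were the fragile ones: without 1 mean at a time the limma adjusted p reached 0.0704 for NDHM, 0.0541 for PNSB1 and 0.0891 for PNSB2. In F. robusta the only change was a gain, PNSB3 without ZT20 of LD day 1 (limma adjusted p = 0.0437).

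**Figure D3:**
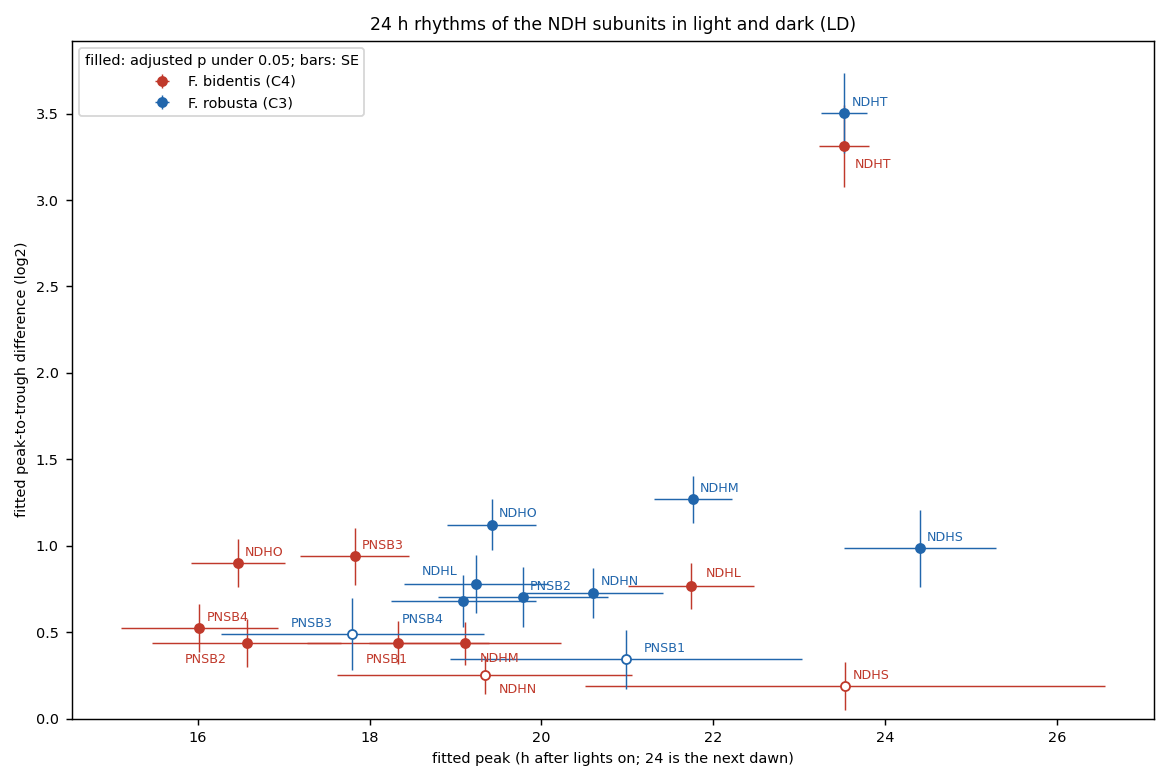
Fitted peak-to-trough difference (log2, vertical axis) against the fitted peak hour (horizontal axis) of the 10 subunits in LD, F. bidentis in red and F. robusta in blue, with bars of 1 SE and filled points for an adjusted p under 0.05. NDHT stands apart in both species at spans of 3.31 and 3.51, and the other members lie at 1.27 or below.

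A species difference in the LD rhythm was called for 2 of 10 members, NDHM and NDHO, against 9.03% of all genes. NDHM in F. bidentis read 481.5, 456.5, 438, 411.5, 479.5 and 509 RPM on LD day 1, a shallow course. In F. robusta it read 229.5, 161.5, 102.5, 106, 169.5 and 261.5 RPM over the same hours, low in the afternoon and at the start of the dark and highest at ZT20. The spans were 0.43 and 1.27, with a difference of -0.83 (SE 0.17, limma adjusted p = 0.00262), and after TMM the difference was -0.92 (limma adjusted p = 0.00305).

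On the deposited scale NDHO differed more in timing than in size. After TMM its spans were 0.45 in F. bidentis (limma adjusted p = 0.0649, not called) and 0.97 in F. robusta. Its LD day 2 read 148, 134.5, 143, 202, 247.5 and 218.5 RPM in F. bidentis and 109.5, 66, 69, 76.5, 107 and 156.5 RPM in F. robusta. The highest mean came at ZT16 in F. bidentis and at ZT20 in F. robusta. The fitted peaks were 16.5 and 19.4 h, a difference of -2.95 h (SE 0.71 h, limma adjusted p = 0.0216 for the rhythm as a whole), and the call was lost after TMM (0.1) and without ZT12 and ZT16 of F. robusta LD day 2 together (0.0542). Both genes were among those already known from these data to differ, so their calls are no independent support.

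NDHN and NDHS had a larger fitted span in F. robusta as well, by differences of -0.48 (SE 0.17) and -0.80 (SE 0.27), but with limma adjusted p of 0.131 and 0.133 they were not called. Among the assembly and PPR factors, CRR1, CRR41 and CRR4 were called, and among the 10 other subunits and linkers none was. Of those 10, 7 had a called rhythm in F. bidentis (67.3% of all genes) and 6 in F. robusta (65.4%), and 5 in each after TMM.

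Several NDH transcripts of the C4 species were higher in nights spent in light. ZT12, ZT16 and ZT20 fall in the dark in LD and in light in LL, and at these hours 6 of 10 members were higher in LL than in LD in F. bidentis and none was lower. Over all genes 41% were called and 5.54% were called higher, and the median difference was 0.29 for the members beside -0.21 for all genes. LL always followed LD, so light at night, the sampling day and the age of the plants cannot be told apart.

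PNSB2 changed most. Its 6 dark means in F. bidentis had a lowest value of 178, a median of 196.8 and a highest value of 212 RPM, and its 6 lit means 251.5, 277.0 and 306.5 RPM. All lit means were above all dark ones, and the log2 difference was 0.50 (SE 0.085, limma adjusted p = 7.02e-04). How many of all genes had lit and dark means apart in this way was not counted, for PNSB2 or for the genes below.

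NDHS followed, with 249.5 to 362.5 RPM (median 319.5) in the dark, 381 to 503 RPM (median 409) in light, no shared values and a difference of 0.48 (SE 0.096, limma adjusted p = 0.00186). NDHN lay between 372 and 432 RPM (median 427.5) in the dark and between 490 and 580 RPM (median 524) in light, and PNSB3 between 434.5 and 594.5 RPM (median 542) and between 613.5 and 755.5 RPM (median 673). Lit and dark values were again apart in both, with differences of 0.33 (adjusted p = 0.00487) and 0.37 (adjusted p = 0.0024) in limma.

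PNSB1 had 1114 to 1302 RPM (median 1276) in the dark and 1328 to 1586 RPM (median 1458) in light, a rise of 0.23 (SE 0.068, limma adjusted p = 0.0165). NDHL had 117 to 210 RPM (median 168) and 184.5 to 223 RPM (median 216.2), a rise of 0.37 (SE 0.10, limma adjusted p = 0.0105). NDHL overlapped between dark and lit nights, and its gap shrank over the night from 0.68 at ZT12 to 0.11 at ZT20. PNSB4 (0.02), NDHO (0.11), NDHM (0.18) and NDHT (0.25) were not called.

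NDHT changed shape. Its level difference in F. bidentis was not called, but the standard error was wide (0.48, SE 0.33, limma adjusted p = 0.296 after TMM), so an unchanged level is not shown. In F. bidentis at ZT12 NDHT read 33 and 26.5 RPM in the dark nights and 46 and 115 RPM in the lit ones. At ZT20 it read 295.5 and 249 RPM in the dark nights and 165.5 and 128 RPM in the lit ones. Lit nights thus had a higher NDHT level at ZT12 (log2 difference 1.27) and a lower one at ZT20 (-0.89), and F. robusta gave 1.15 and -0.96 at the same hours.

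**Figure D4:**
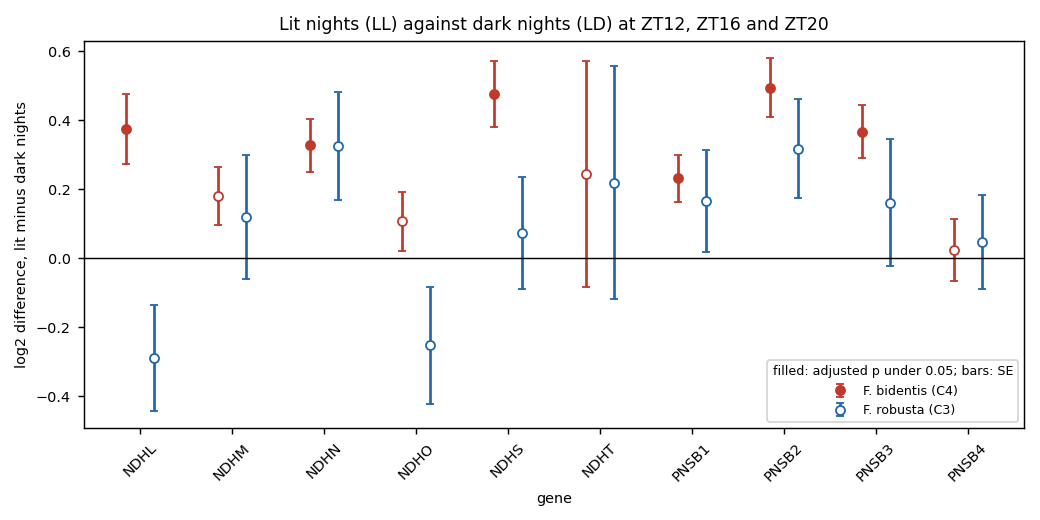
Log2 difference of lit nights (LL) minus dark nights (LD) over ZT12, ZT16 and ZT20 (vertical axis) for the 10 subunits, F. bidentis in red and F. robusta in blue, with bars of 1 SE and filled points for an adjusted p under 0.05. Filled points are NDHL, NDHN, NDHS, PNSB1, PNSB2 and PNSB3 in F. bidentis, between 0.23 and 0.50, and no F. robusta point is filled.

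In F. robusta no member was called between lit and dark nights, where 6.31% of all genes were called by limma. At an unadjusted p under 0.05 only PNSB2 stood (0.32, SE 0.14, limma adjusted p = 0.173), against 27.4% of all genes. NDHN had the same fitted difference as in F. bidentis, 0.33, with a larger standard error (0.16 against 0.077). The mean at ZT20 of LL day 2 bears on this count: without it NDHN (0.47, limma adjusted p = 0.022) and PNSB2 (0.41, limma adjusted p = 0.0415) were called, and the all-gene count rose from 856 to 2676.

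The difference between the species in the effect of lit nights was called for 0 of 10 members by limma, against 1.03% of all genes (12.3% at an unadjusted p under 0.05). NDHL came nearest, at 0.66 (SE 0.18, unadjusted p = 0.00153, limma adjusted p = 0.0897): its F. robusta lit nights, at 73.5 to 111.5 RPM (median 101), were lower in fitted level than its dark nights, at 91 to 150.5 RPM (median 116.2). NDHS was the only other member at an unadjusted p under 0.05 (0.40, SE 0.19, limma adjusted p = 0.39). The calls in F. bidentis alone therefore do not show that the species differ.

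By a simple count, both lit means of an hour were above both dark means in 23 of the 30 member hours in F. bidentis and in 13 of 30 in F. robusta, where all genes gave 13.7% and 7.9%. Scaling matters here: among called genes, TMM moved the share that was higher in lit nights from 13.52% to 48.19% in F. bidentis. In F. robusta that share moved from 20.56% to 63.25%, with 4.03% of all genes called after TMM. After TMM 9 of 10 members were called higher in F. bidentis, all but NDHT, against 14.4% of all genes called higher, and 0 of 10 in F. robusta. Among the 10 other subunits and linkers, PNSL1 (0.45), NDHV (0.41), PNSL5 (0.35), LHCA6 (0.30) and PNSL4 (0.24) were called higher in F. bidentis and none lower, 10 of 10 after TMM and 0 of 10 in F. robusta.

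The assembly and PPR lists did not move as one in the lit nights of F. bidentis. PAM68L rose by 0.55 (adjusted p = 0.0266) and CRR6 fell by 0.37 (adjusted p = 0.0392), while CRR4 rose by 1.2 (adjusted p = 5.86e-05) and CRR2 fell by 0.39 (adjusted p = 0.0153), all by limma. After TMM the calls of CRR6 (0.394) and CRR2 (0.263) were lost. CRR4, an editing factor of the ndhD start codon in Arabidopsis, had 4 to 11.5 RPM (median 8.5) over the F. bidentis LD means and 4 to 28 RPM (median 20.5) over the LL means, with overlap.

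No 24 h rhythm of a member was called in LL in either species, and none of all 13563 genes was (0%) by limma, although 19.3% of genes in F. bidentis and 13.2% in F. robusta had an unadjusted p under 0.05. At that unadjusted level F. bidentis had NDHT alone (span 1.34, SE 0.32) and F. robusta had PNSB3 (1.10), NDHN (1.05), PNSB1 (0.76), PNSB2 (0.75) and NDHO (0.71). These LL fits include the daylight means of LL day 1, which follow a dark night, so a span is not that of constant light alone. The dawn values of NDHT differed after dark and lit nights. At ZT00 after a dark night it stood at 326, 318.5 and 307.5 RPM in F. bidentis and at 177.5, 175 and 183 RPM in F. robusta. After a lit night it stood at 154 and 153.5 RPM in F. bidentis and at 90.5 and 44 RPM in F. robusta. In both species the values after lit nights were all below those after dark nights. The share of all genes with dawn values in this order was not counted.

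Ranges within single days were smallest on LL day 2 in 10 of 10 members in F. bidentis. Over all genes tested the median range in that species fell too, from 1.0 on both LD days to 0.81 and then 0.43 in LL. The NDHT range (log2, highest minus lowest of 6 means) in F. bidentis was 3.27 and 3.54 on the LD days, 2.72 on LL day 1 and 0.60 on LL day 2, and 3.73, 3.42, 3.31 and 0.72 in F. robusta. Over the 10 members the F. bidentis median of these ranges was 0.54, 0.58, 0.76 and 0.22, and that of F. robusta 0.90, 0.98, 1.01 and 0.88. The LL day 2 range was below both LD ranges in 10 of 10 members in F. bidentis, against 85.5% of all genes, and in 5 of 10 in F. robusta, against 64.7%.

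LL day 1 begins with the daylight hours that follow the last dark night. In F. bidentis PNSB2 stood at 151 RPM at ZT00 of that day and at 306.5 RPM at its ZT16, and it stayed between 251.5 and 292 RPM on LL day 2 and at the last dawn. NDHO behaved likewise, from a lowest LL mean of 138 RPM at ZT04 of LL day 1 to 278 RPM at its ZT16. The last F. robusta mean, ZT00 of LL day 3, was the lowest LL value of NDHL (65.5 RPM), PNSB2 (53) and PNSB3 (131) in that species, and it has 1 of the 4 high TMM factors named above.

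The members' time courses were compared pair by pair, and NDHT pairs gave the lower median. Over the 25 means of a species, Pearson's r between pairs without NDHT had a median of 0.73 (F. bidentis) and 0.618 (F. robusta), against 0.0645 and 0.349 for pairs with NDHT. PNSB1 and PNSB3 were the closest pair in F. bidentis (0.941) and NDHL and NDHO in F. robusta (0.915), while NDHL and NDHO reached only 0.495 in F. bidentis. The 2 sets of pairs overlapped: in F. robusta NDHT reached 0.768 with NDHM and 0.618 with NDHS, and pairs without NDHT went down to -0.0862 (NDHS and PNSB4), 0.201 (NDHS and PNSB2) and 0.226 (NDHM and PNSB3). NDHN and PNSB2 were close in both (0.926 and 0.862). All points of these correlations share their libraries and totals, so they are given as descriptions.

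**Figure D5:**
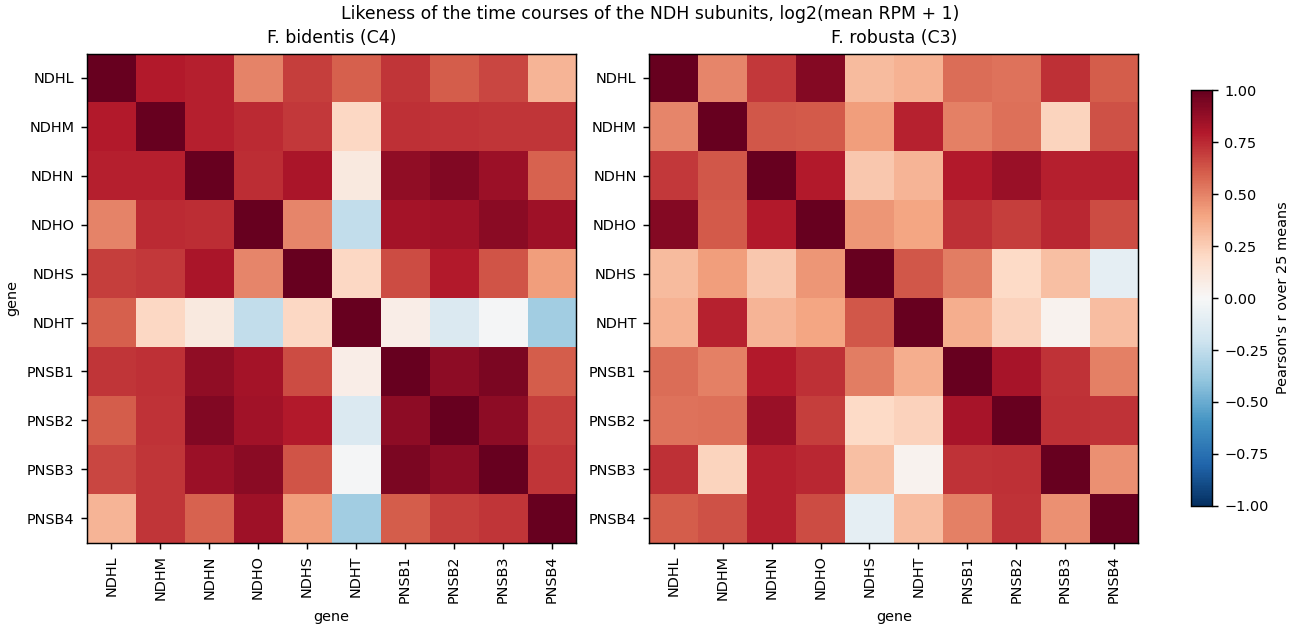
Pearson's r between the log2(mean RPM + 1) courses of each pair of the 10 subunits over the 25 means of F. bidentis (left) and F. robusta (right), from -1 (blue) to 1 (red). The NDHT row and column have a median r of 0.0645 (left) and 0.349 (right), and in F. robusta the NDHS row holds low values too.

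Among 8498 other genes that averaged 10 RPM or more, the 5 whose courses were most like the members' mean, by the lower r of the 2 species, included the lumenal NDH subunit PNSL2 (r of 0.891 in F. bidentis, 0.878 in F. robusta). The other 4 were AT1G32470, described as a single hybrid motif protein (0.88 and 0.878), AT5G61410, D-ribulose-5-phosphate-3-epimerase (0.871 and 0.873), AT3G61870, listed with no description (0.883 and 0.866), and AT1G54780, a thylakoid lumen protein (0.955 and 0.863). The gene most like NDHT was AT5G09930, an ABC transporter family protein (0.962 and 0.95). NDHO was closest to AT4G17740, a peptidase of family S41 (0.945 and 0.917), and NDHN and PNSB2 both to AT1G11860, the glycine cleavage T-protein (0.893 and 0.861 with NDHN, 0.903 and 0.901 with PNSB2).

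Each remaining member had its own nearest gene. NDHL was closest to PNSL2 (0.847 and 0.762), NDHM to AT5G22830, a magnesium transporter (0.79 and 0.818), NDHS to AT3G25805, which has no description (0.822 and 0.796), and PNSB1 to AT5G48300, an ADP-glucose pyrophosphorylase subunit (0.948 and 0.85). PNSB3 was closest to AT3G61870 (0.913 and 0.88) and PNSB4 to AT1G43670, an inositol monophosphatase family protein (0.86 and 0.853).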

How the data were processed

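The authors deposited 1 table per Arabidopsis gene, holding counts and RPM (reads scaled to a common library total). Per the file headers, 50 columns hold the authors' mean RPM of a species, regime, day and hour, in steps of 0.5. Another 200 columns hold counts and RPM of single libraries under numbers that match no sample title, and were not used. CASAVA and the build TAIR10 are named in the submitters' processing notes; the aligner and the matching of Flaveria reads to Arabidopsis genes were not given in the sources used here. Per the labels' protocols, libraries were read as single reads of 100 bp, 12 libraries per lane.

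Values were taken as log2(mean RPM + 1). Genes averaging 1 RPM or more across the 50 columns (13563) were fitted in R 4.3.3 with limma 3.58.1 (lmFit, eBayes with trend and robust settings), with two-sided tests and Benjamini-Hochberg adjustment over all of them. A rhythm is the F test of a 24 h cosine and sine beside a linear trend. Levels were compared with time point as a factor, and lit with dark nights with hour as a factor. TMM (30% of M and 5% of A values trimmed, unweighted), a pseudocount of 0.1, other filters (none, or 5 RPM), no trend, added 12 h terms and omissions of means were alternatives. The fits were tested on simulated data.

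The members and the 10 lists were chosen with earlier results of these data known. Any member could be named. Of other lists up to 4 genes of smallest adjusted p per comparison, and any gene going against its list, could be named, with the 5 genes most like the members' mean and the nearest gene of each member. Other list genes were named after their values were seen.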

Additional observations from a re-analysis of the deposited data

Results flagged for a closer look

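The LD rhythm differed between the species, by a test of the difference itself (limma, adjusted over all genes), in 2 subunits and 3 factors. NDHM had a smaller span in F. bidentis (0.43 against 1.27, adjusted p = 0.00262; 0.00305 after TMM), and NDHO fitted peaks at 16.5 and 19.4 h (adjusted p = 0.0216 for the rhythm as a whole; 0.1 after TMM, and 0.0542 without ZT12 and ZT16 of F. robusta LD day 2). CRR41, an assembly factor, had spans of 1.24 and 2.53 (adjusted p = 0.0099; 0.0088 after TMM). CRR4, an editing factor, had spans of 0.47 and 2.05 (adjusted p = 0.0404; 0.0242 after TMM). On the deposited scale CRR1, an assembly factor, had similar spans of 0.56 and 0.53 but peaks at 15.1 and 23.7 h (adjusted p = 0.0444). After TMM its F. bidentis span was 0.036 (limma adjusted p = 0.977, not called) and its F. robusta span 0.99 (limma adjusted p = 0.0198). The species difference then had a limma adjusted p of 0.08. Against these, 9.03% of all genes were called.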

How the results depend on the processing

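No paired analysis was possible because the columns of means carry no replicate numbers, and those of single libraries matched no sample title. Species levels, LD rhythms in F. robusta, lit nights in F. bidentis and LL rhythms kept their counts of members within 1.5 times under every alternative run. The count of species differences in LD rhythm went from 2 to 1 after TMM and to 1 without ZT12 and ZT16 of F. robusta LD day 2. The lit-night count in F. robusta went from 0 to 2 without its LL mean of high TMM factor. Leaving out 1 mean at a time gave 5 to 8 members for LD rhythms in F. bidentis and 0 to 2 for lit nights in F. robusta. The cause was not tested.

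Some differences that were never called changed sign. In LD rhythm NDHL became 0.37 and PNSB1 -0.21 after TMM. In the species difference of lit nights, without the F. robusta mean of high TMM factor, NDHM became -0.044, NDHN -0.14, NDHT -0.20 and PNSB1 -0.031, while NDHN became -0.00041 with a pseudocount of 0.1 and PNSB4 0.0092 after TMM. With 1 mean left out, the LD rhythm difference ran from -0.15 to 0.095 for NDHL, -0.42 to 0.078 for NDHT and -0.029 to 0.21 for PNSB1. Lit nights in F. bidentis ran from -0.046 to 0.43 for NDHT and -0.035 to 0.072 for PNSB4. In F. robusta they ran from -0.0081 to 0.16 for NDHS, -0.11 to 0.44 for NDHT and -0.038 to 0.12 for PNSB4. Their species difference ran from -0.053 to 0.18 for NDHM, -0.14 to 0.071 for NDHN, -0.26 to 0.35 for NDHT, -0.031 to 0.13 for PNSB1 and -0.099 to 0.062 for PNSB4.

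Over all genes, TMM changed the calls of LD rhythms in F. bidentis from 9130 to 5551, in F. robusta from 8875 to 5668, of lit nights in F. robusta from 856 to 547, and of their species difference from 140 to 278. Omitting 1 mean gave 131 to 2676 calls for lit nights in F. robusta (131 without ZT16 of LL day 2, 2676 without ZT20 of that day) and 86 to 218 for the species difference. Only means were used, so no limit from depth per library is given.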
